A study of Mus musculus with 24 samples.

Results

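The genes described here are 10 chaperones and quality control factors of the endoplasmic reticulum (ER), listed by name as Hspa5, Hsp90b1, Calr, Canx, Pdia4, Pdia6, Edem1, Creld2, Sdf2l1 and Dnajb9. They are 10 of 24421 genes in the count table, and all 10 are among the 14205 genes that passed the filter on low counts. They were listed by name for their function, with earlier results of these data known, so the counts of genes called are descriptions. RNA was sequenced from bone marrow cells of male C57BL/6 mice without any transgene or treatment, 4 young mice aged 12 weeks and 4 aged mice aged 107 weeks. Marrow was enriched for CD117 (Kit), and lineage-negative, Sca1-positive, Kit-positive cells were sorted into long-term hematopoietic stem cells (LT-HSC; positive for CD150, negative for CD48), short-term stem cells (ST-HSC; lacking CD150 and CD48) and multipotent progenitors (MPP; with CD48 and without CD150). This gave 6 groups of 4 libraries. The labels do not link a library to a mouse, so p-values measure the spread between these libraries. Libraries are numbered 1 to 4 within a group in accession order.

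Proteins bound for the cell surface, for secretion or for the membranes of the secretory pathway fold in the ER. Chaperones and disulfide isomerases assist folding there, and proteins that fail to fold are sent back to the cytosol for degradation. When unfolded proteins accumulate, the sensors IRE1, PERK and ATF6 start the unfolded protein response, which raises transcription of the genes described here through the factors XBP1s, ATF4 and cleaved ATF6. Stem cells of the blood are known for a low rate of protein synthesis, and plasma cells, which secrete antibody, are known for a very large ER and high XBP1 activity.

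Many promoters of ER chaperone genes carry the ER stress response element, read as CCAAT, 9 bases of any kind and CCACG, where NF-Y binds the first part and ATF6 or XBP1 the last. The element is shown because it is a known sequence feature of such genes. Promoter sequence was not used to list the 10 genes. They were listed as ER chaperones and quality control factors, so its share among them is not an independent result. RefSeq promoter windows (GRCm38.p6, the same assembly as the build mm10 named in the submitters' processing notes) from 250 bases before to 50 after each gene's start were searched on both strands, and all 10 genes had a window. The element was found in 6 of the 10 genes, against 37 of all 27025 genes with a window, the 6 included. Counted by window, it was in 39 of 32851 (0.119%). In each line below, 5 bases stand on either side of the match, capitals mark the letters fixed by the element, and the distance is the number of bases between the match and the RefSeq start.
Hspa5, chr2:34772020-34772048, plus strand, distance 46: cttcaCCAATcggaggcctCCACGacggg
Hsp90b1, chr10:86705633-86705661, minus strand, distance 193: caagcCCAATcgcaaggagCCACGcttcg
Hsp90b1, chr10:86705528-86705556, plus strand, distance 88: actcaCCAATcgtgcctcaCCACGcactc
Calr, chr8:84847070-84847098, plus strand, distance 143: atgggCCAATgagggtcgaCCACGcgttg
Canx, chr11:50325795-50325823, minus strand, distance 126: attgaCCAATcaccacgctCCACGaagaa
Pdia6, chr12:17266486-17266514, plus strand, distance 79: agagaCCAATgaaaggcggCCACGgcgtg
Creld2, chr15:88819515-88819543, minus strand, distance 107: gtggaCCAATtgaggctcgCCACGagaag

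Hsp90b1 alone among the 10 carried the element at 2 places, on opposite strands. The match of Hspa5 lies in an exon of Hspa5 in GENCODE M21, whose gene model starts further upstream than the RefSeq one, and the other matches lie outside every annotated gene. In Pdia4, Sdf2l1 and Dnajb9 the nearest stretch had 1 or 2 mismatches, written as the element's base, its position from the first C of the element, and the base found. The nearest stretch in Edem1 had 3. These stretches are shown so that the letters can be compared with the matches above, with the same marking of the fixed positions.
Pdia4, chr6:47813597-47813625, plus strand, mismatch G19T: gaccaCCAATcacgggctgCCACTcggtt
Sdf2l1, chr16:17132400-17132428, plus strand, mismatches C15G and A17G: ggcagCCAATcgtctgcgcGCGCGcgttc
Dnajb9, chr12:44210167-44210195, minus strand, mismatches C1G and T5C: aaacgGCAACaacagttttCCACGtgcgc

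A stretch with at most 1 mismatch occurs in 1.5% of all windows, and one with at most 2 in 17.9%. The related element ATTGG, 1 base of any kind and CCACG (0.0365% of windows) TGACGTGG (0.676%) and the ATF4 element TGATGCAA (0.895%), were in none of the 10 windows, on either strand. Of the 31 other genes with the full element, 5 belong to the lists of secretory pathway genes described with the results, which hold 226 genes: Alg12, Derl3, Dnajc3, Ero1lb and Syvn1. These are matches of letters and were not tested for binding.

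Library totals ran from 7307151 to 12946550 counts. The transcript of Slamf1, which encodes CD150, averaged 26.2 CPM (here a gene's count relative to the TMM-scaled library total) in young and 72.1 in aged LT-HSC and was at most 1.93 CPM in every library of the other groups. Cd48 averaged 66.4 and 90.2 CPM in young and aged MPP, 11.5 and 14.4 in ST-HSC, and 1.25 and 0.178 in LT-HSC. Kit averaged between 1040.7 and 1694.5 CPM over the 6 groups. Ly6a, which encodes Sca1, rose with age in MPP, from 30.2 ± 9.22 to 77.2 ± 38 CPM, with young libraries at 23.3 to 43.3 and aged ones at 29.9 to 109.3 CPM (log2 difference 1.36 ± 0.31, edgeR adjusted p = 0.0071). Its part in the MPP results was not tested. In bulk RNA, fewer cells of a type and less RNA per cell cannot be told apart. Libraries stood apart by markers of other cells: the summed level of 16 granulocyte markers was 931.3 CPM in young LT-HSC library 1 against at most 43.9 in the other young LT-HSC libraries. The same sum was 2482.7 to 3274.9 CPM in aged ST-HSC libraries 1, 2 and 3, against 180.3 in library 4. The aged MPP libraries carried plasma cell transcripts, described with the MPP results.

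Per length, Calr, which encodes the lectin chaperone calreticulin, was the highest of the 10 genes in all 6 groups. On a scale of CPM per kilobase of GENCODE M21 exon, Calr stood at 209.5 ± 44.7 (SD, n = 4) in young MPP. Its membrane-bound counterpart calnexin, Canx, followed at 96.3 ± 11.1 and the ER Hsp70 chaperone BiP, Hspa5, at 80.2 ± 13.4. The difference between Canx and Hspa5 was smaller than the sum of their SDs. On this per-length scale Hsp90b1, the ER member of the Hsp90 family, stood at 53.1 ± 5.68 in young MPP and Pdia4, a protein disulfide isomerase, at 43.6 ± 5.0. Sdf2l1, a luminal protein found in chaperone complexes with BiP, stood at 33.3 ± 6.31 and Pdia6, another disulfide isomerase, at 28.1 ± 3.98, which is within their spread. Creld2, an ER stress-induced luminal protein, stood at 21.6 ± 4.07. Edem1, which hands misfolded glycoproteins to degradation, stood at 17.5 ± 2.19, and the lowest was Dnajb9, a J-domain partner of BiP, at 8.32 ± 1.73. The order at the bottom differed in some other groups. In aged LT-HSC, Sdf2l1 was lowest at 3.33 ± 0.376 CPM per kilobase. In young ST-HSC, Edem1 (10.4 ± 1.46), Sdf2l1 (10.4 ± 1.19) and Dnajb9 (10.8 ± 2.02) were within their spread. The summed level of the 10 genes was 1468.1 ± 124.6 CPM in aged LT-HSC and 1468.8 ± 42.9 in young ST-HSC, the lowest groups, and 3078.5 ± 669.3 in aged MPP, the highest. Each aged MPP library (2688.4 CPM or more) lay above each library of the other groups (2360.8 or less).

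**Figure D1:**
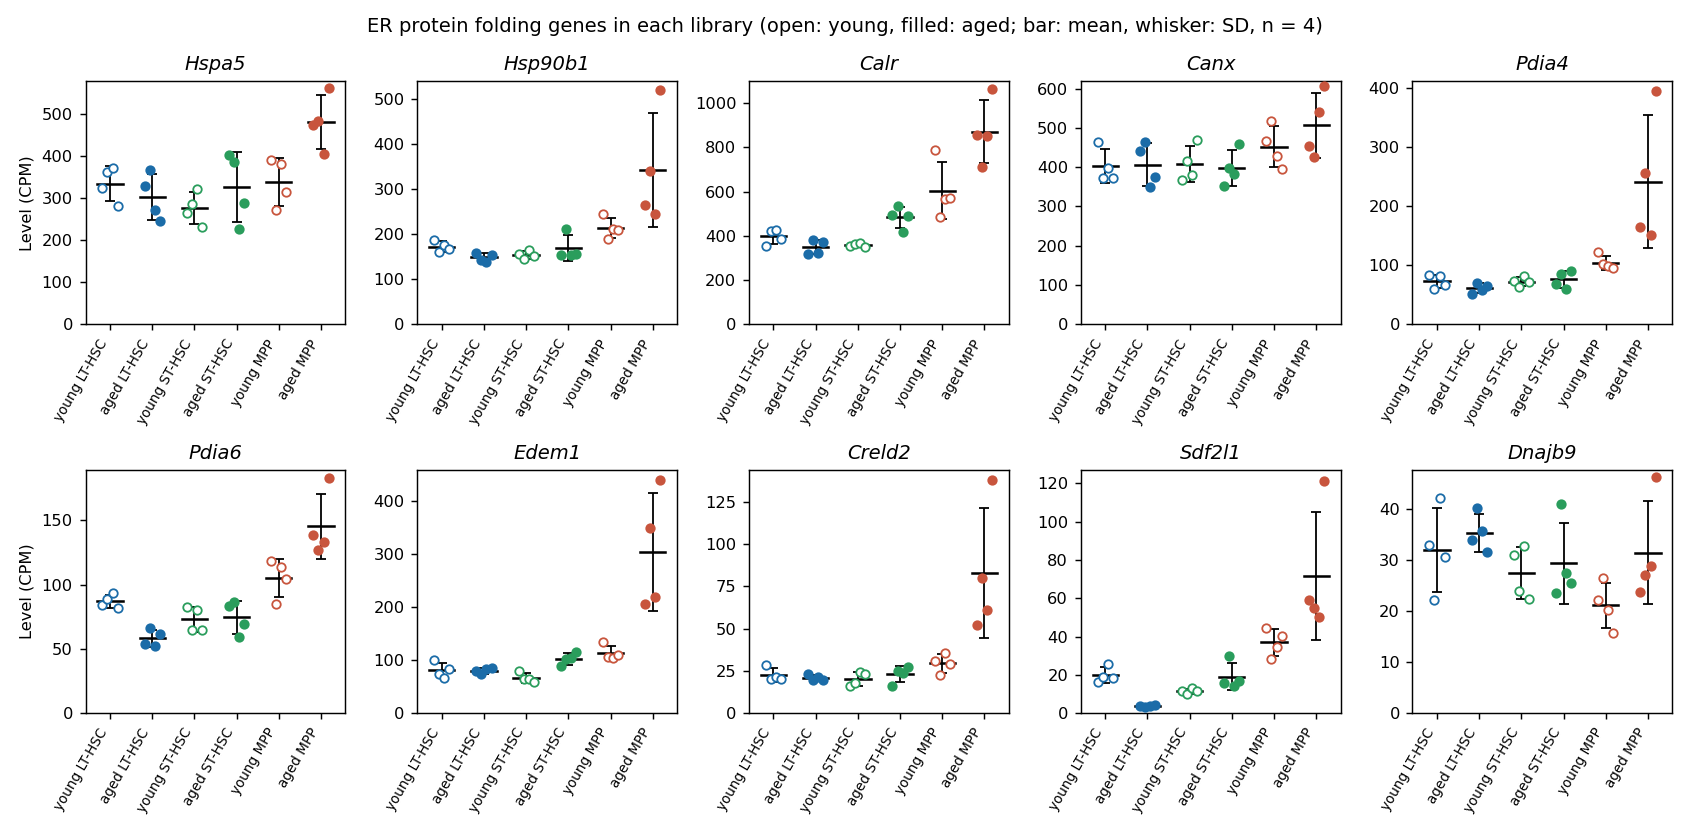
Level of each of the 10 ER folding genes in CPM (vertical axis) in every library of the 6 groups, with open circles for young and filled circles for aged mice, a bar for the mean and a whisker for the SD (n = 4). Aged MPP library 4 is the highest of the 24 libraries for each of the 10 genes, and Sdf2l1 is lowest in the 4 aged LT-HSC libraries (3.15 to 4.15 CPM).

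In LT-HSC, 2 of the 10 genes passed the test between the ages and both were lower in aged mice, while 8 did not pass. At the same threshold (adjusted p under 0.05 in the quasi-likelihood test of edgeR, adjusted over all genes tested), 18.9% of all genes tested were called in this comparison, so the number of members called is near the background. The change in Sdf2l1 was large. Sdf2l1 stood at 16.3, 18.8, 25.9 and 18.6 CPM in young LT-HSC libraries 1 to 4 and at 3.63, 3.15, 3.83 and 4.15 CPM in the aged ones, from 137 to 248 counts per young library and 30 to 34 per aged library. All 4 aged libraries lay below all 4 young ones and near each other. Sdf2l1 fell by 2.43 ± 0.28 (SE) on the log2 scale, 5.39-fold (adjusted p = 1e-06).

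Pdia6 stood at 84.1, 88.8, 93.3 and 81.5 CPM in young and at 53.8, 65.8, 52 and 61.6 CPM in aged LT-HSC. The ages did not overlap, and Pdia6 fell by 0.57 ± 0.13 on the log2 scale (edgeR adjusted p = 0.0026). Hsp90b1 stood at 160.7 to 186.7 CPM in young and 139 to 159.3 CPM in aged LT-HSC, also without overlap, but its log2 difference of -0.21 ± 0.16 did not pass (adjusted p = 0.39). The ages thus did not overlap for 3 of the 10 genes, against 22.1% of all genes tested. For the other genes the log2 differences lay between -0.26 (Pdia4) and 0.15 (Dnajb9), with adjusted p from 0.28 to 0.99. The chaperone Hspa5, whose young libraries ran from 282.6 to 371.9 CPM and aged ones from 246.9 to 368 CPM, had a log2 difference of -0.14 ± 0.17. Without young LT-HSC library 1, which had the granulocyte transcripts (left out together with the 3 such ST-HSC libraries), the log2 differences were -2.54 for Sdf2l1 and -0.61 for Pdia6, with adjusted p of 1.1e-06 and 0.0025. Defining plasma cell transcripts were low in these cells: the summed level of Jchain, Mzb1, Sdc1, Tnfrsf17, Pou2af1 and Fcrl5 was 2.14 to 6.09 CPM in young and 3.32 to 23.8 CPM in aged LT-HSC.

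In ST-HSC, 1 of the 10 genes, Calr, rose with age, and 5.79% of all genes tested were called. Calr stood at 355.9, 362.1, 366.4 and 348.7 CPM in young and at 493.4, 536.1, 418.8 and 488.7 CPM in aged ST-HSC. The 4 young libraries were close together and all below the aged ones, and the log2 difference was 0.43 ± 0.12 (edgeR adjusted p = 0.029). Edem1 (58.3 to 80.4 CPM in young, 88.6 to 114.6 CPM in aged ST-HSC) and Sdf2l1 (9.94 to 13.2 and 14.1 to 29.6 CPM) also did not overlap between the ages. Their log2 differences of 0.61 ± 0.18 and 0.72 ± 0.25 did not pass (adjusted p = 0.054 and 0.096). Non-overlapping ages were found for 3 of the 10 genes, against 10.9% of all genes tested. The other 7 genes had log2 differences from -0.03 (Canx) to 0.24 (Hspa5).

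The Calr call in ST-HSC was narrow. It was lost on leaving out any 1 of 7 of the 8 ST-HSC libraries (aged libraries 1, 2 and 4 and each young one), with adjusted p of 0.053 to 0.08 and log2 differences of 0.39 to 0.46. With only aged ST-HSC library 4 kept of the aged group, which leaves out the 3 libraries with granulocyte transcripts and assumes that the lone library varies like the others, the difference was 0.46 (edgeR adjusted p = 0.28). Of 13 tested granulocyte markers 7 rose in aged ST-HSC. The sum over all 16 granulocyte markers was 180.3 to 3274.9 CPM there, against 86.4 to 388.4 CPM in young ST-HSC. Of 15 monocyte and macrophage markers 5 rose in aged ST-HSC (351.8 to 908.9 against 211.5 to 314.7 CPM). The part of these transcripts in the Calr result was not tested.

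In MPP, 7 of the 10 genes rose with age and none fell, while 9.79% of all genes tested were called. The median log2 difference of the 10 genes was 0.63, against 0 for all genes tested. Since the list was made with earlier results of these data known, these values are not an independent test of it. The genes that rose were Creld2, Edem1, Pdia4, Sdf2l1, Hsp90b1, Calr and Pdia6. Hspa5, Dnajb9 and Canx did not pass.

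Edem1, the degradation factor, stood at 134, 106, 103.5 and 109.4 CPM in young MPP and at 205.5, 349.8, 219.4 and 440.4 CPM in aged MPP. All aged libraries lay above the young ones, with libraries 2 and 4 highest. The log2 difference was 1.42 ± 0.18, 2.68-fold (edgeR adjusted p = 2.5e-05). Creld2 stood at 30.7, 22.3, 35.8 and 29 CPM in young and 52.1, 79.8, 61.2 and 138 CPM in aged MPP. Again no young library reached an aged one, and libraries 2 and 4 were the highest. Creld2 rose by 1.49 ± 0.23 on the log2 scale, 2.81-fold (adjusted p = 0.00014).

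The disulfide isomerase Pdia4 stood at 122.1, 101.7, 98.6 and 95.7 CPM in young and 164.1, 256.5, 151.7 and 394.8 CPM in aged MPP. The ages did not overlap, and the log2 difference was 1.21 ± 0.22 (edgeR adjusted p = 0.0013). Pdia6, of the same family, moved from 84.6 to 118.4 CPM in young to 126.6 to 182.7 CPM in aged MPP, a log2 difference of 0.46 ± 0.13 (adjusted p = 0.02). Both isomerases thus rose without overlap, Pdia4 by the larger factor (2.31-fold against 1.38-fold).

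Among the chaperones proper, Hsp90b1 stood at 245.4, 190.4, 210.8 and 209.6 CPM in young and 264.7, 340.3, 245.9 and 521.3 CPM in aged MPP. The lowest aged library lay just above the highest young one, and the log2 difference was 0.68 ± 0.16 (edgeR adjusted p = 0.0084). Sdf2l1 stood at 44.4, 28.5, 34.3 and 40.5 CPM in young and 59, 55, 50.3 and 121.2 CPM in aged MPP, a log2 difference of 0.95 ± 0.24 (adjusted p = 0.011). Library 4 was far above the other aged libraries for Sdf2l1, though none of them overlapped with the young ones. Hspa5 stood at 390.1, 271.2, 380.7 and 314.1 CPM in young and 473, 483.4, 405.5 and 561.8 CPM in aged MPP. The ages did not overlap for Hspa5 either, but its log2 difference of 0.5 ± 0.17 missed the threshold (adjusted p = 0.06). In all, the ages did not overlap for 7 of the 10 genes, against 16.5% of all genes tested.

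The lectin chaperones differed from each other. Calr stood at 786.9, 485.3, 568 and 573.4 CPM in young and 857.9, 713.2, 853.5 and 1062.6 CPM in aged MPP, a log2 difference of 0.53 ± 0.12 that passed (edgeR adjusted p = 0.0043) although young library 1 lay above aged library 2. Canx ran from 394.7 to 516.6 CPM in young and from 426.7 to 606.2 CPM in aged MPP, overlapping widely, with a log2 difference of 0.16 ± 0.12 (adjusted p = 0.42). Dnajb9 stood at 15.8 to 26.4 CPM and 23.7 to 46.2 CPM, with a log2 difference of 0.57 ± 0.22 (adjusted p = 0.094). Of the 6 genes whose promoter window holds the full ER stress response element, 4 rose in aged MPP, and of the other 4 genes 3 rose.

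**Figure D2:**
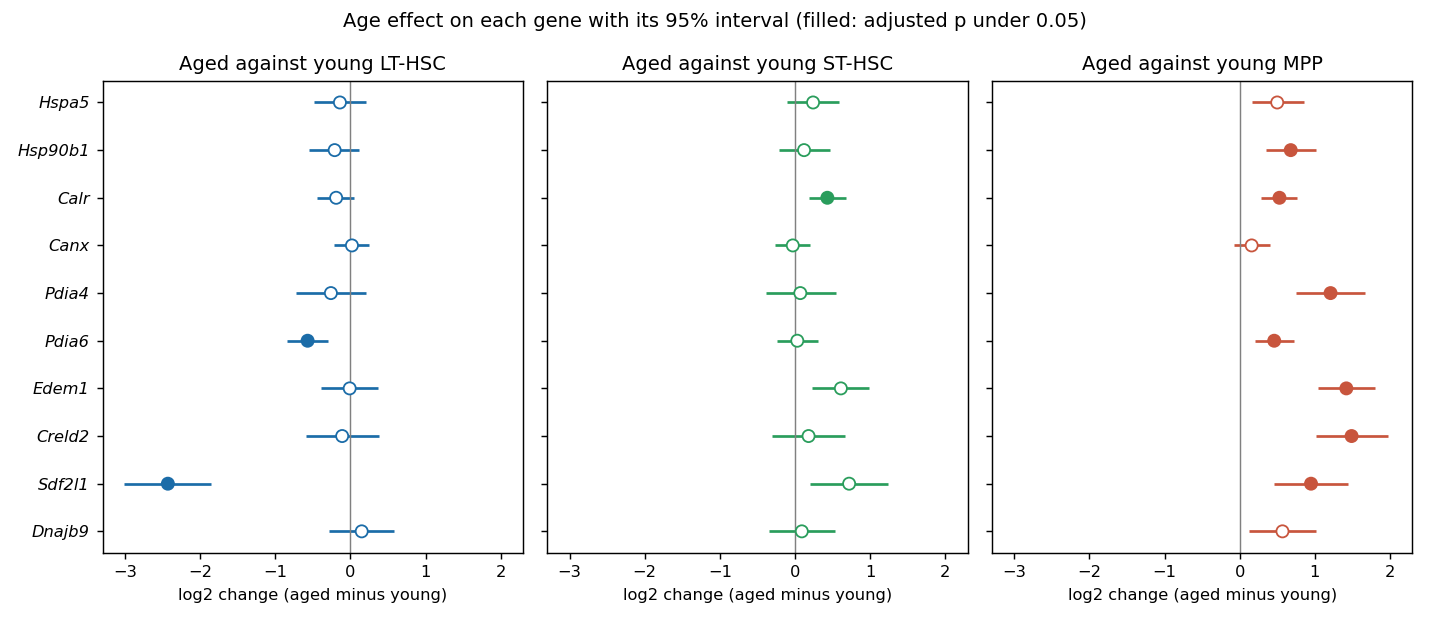
Difference between aged and young libraries for each of the 10 genes (log2, horizontal axis) in LT-HSC, ST-HSC and MPP, with the 95% interval of the edgeR fit as a line and filled circles for adjusted p under 0.05. The points of MPP lie to the right of 0 for all 10 genes, whereas in LT-HSC Sdf2l1 (-2.43) and Pdia6 (-0.57) lie to the left.

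The call in MPP rested in part on aged MPP libraries 2 and 4. Without library 4 alone, the log2 differences were 0.41 for Hsp90b1 (edgeR adjusted p = 0.025) and 0.57 for Sdf2l1 (0.089), and Pdia6 no longer passed (0.34, 0.12). Pdia6 was also lost without young MPP library 2 (0.37, 0.096), and Hspa5 passed without aged MPP library 3 (0.59, 0.047). With aged MPP libraries 2 and 4 both left out, where 3.53% of all genes tested were called, 4 genes remained called, namely Edem1 (0.9, adjusted p = 0.00019), Creld2 (0.94, 0.008), Pdia4 (0.59, 0.029) and Calr (0.5, 0.025). Hsp90b1, Pdia6 and Sdf2l1 then had log2 differences of 0.25, 0.36 and 0.56. A fit to the 8 MPP libraries alone called Edem1, Creld2, Pdia6 and Hspa5 and not Hsp90b1, Calr, Pdia4 and Sdf2l1 (adjusted p = 0.069 to 0.13).

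Plasma cell transcripts were also higher in aged than in young MPP. All 14 tested plasma cell markers rose in aged MPP, and the summed level of the 6 defining markers was 24, 24.8, 52.5 and 317.7 CPM in young and 2459, 3624.5, 1884.7 and 9424.1 CPM in aged MPP. The sum over all 14 was 192.9 to 503.6 CPM in young and 2527.5 to 10853.7 CPM in aged MPP, and none was at 0 in any aged MPP library. With libraries 2 and 4 left out, 8 of the 14 still passed, but only 1 of the 6 defining markers did. Jchain, which encodes the joining chain of secreted antibody, stood at 2324, 3289.4, 1794.1 and 9061 CPM in the aged MPP libraries and made up most of these sums. The 2 aged MPP libraries with the highest sums, 2 and 4, were also those with the highest Edem1, Creld2, Pdia4, Hsp90b1 and Hspa5. For the other 5 genes only library 4 was high: library 2 was the lowest aged MPP library for Calr (713.2 CPM), Canx (426.7) and Pdia6 (126.6) and the second lowest for Sdf2l1 (55) and Dnajb9 (27.1). The list shares Txndc5, Derl3 and Xbp1 with the lists of secretory pathway genes. The sort kept lineage-negative, Sca1-positive, Kit-positive cells, and the labels do not name the lineage antibodies.

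Outside aged MPP, Jchain was highest in aged ST-HSC library 4 at 328.1 CPM and young MPP library 4 at 284.4 CPM, followed by aged LT-HSC library 2 at 20.2 CPM (1.4 to 3.39 in the other aged LT-HSC libraries). Aged ST-HSC library 4 was the highest of its group for 4 of the 10 genes, namely Edem1 (114.6 against 88.6 to 103.6 CPM in the other 3), Pdia4 (90.5 against 59.7 to 85.3), Creld2 (27.4 against 16.1 to 24.9) and Canx (458.7 against 351.9 to 398.9), and lay within the range of the other 3 for the remaining 6. Young MPP library 4 was the highest of its group for none of the 10 genes and the lowest for Pdia4 (95.7 CPM), Canx (394.7) and Dnajb9 (15.8). Of 15 B cell markers, 3 rose and none fell in aged MPP, but without aged MPP libraries 2 and 4 none rose and 5 fell, with summed levels of 108.9 to 231.5 CPM in young and 104.4 to 269 CPM in aged libraries. Granulocyte markers summed to 1597.8 to 5661.7 CPM in aged MPP and 754.7 to 3338.9 CPM in young MPP, and monocyte and macrophage markers to 660.5 to 1259.9 and 271.6 to 504 CPM. The part of these transcripts in the results on the 10 genes was not tested.

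**Figure D3:**
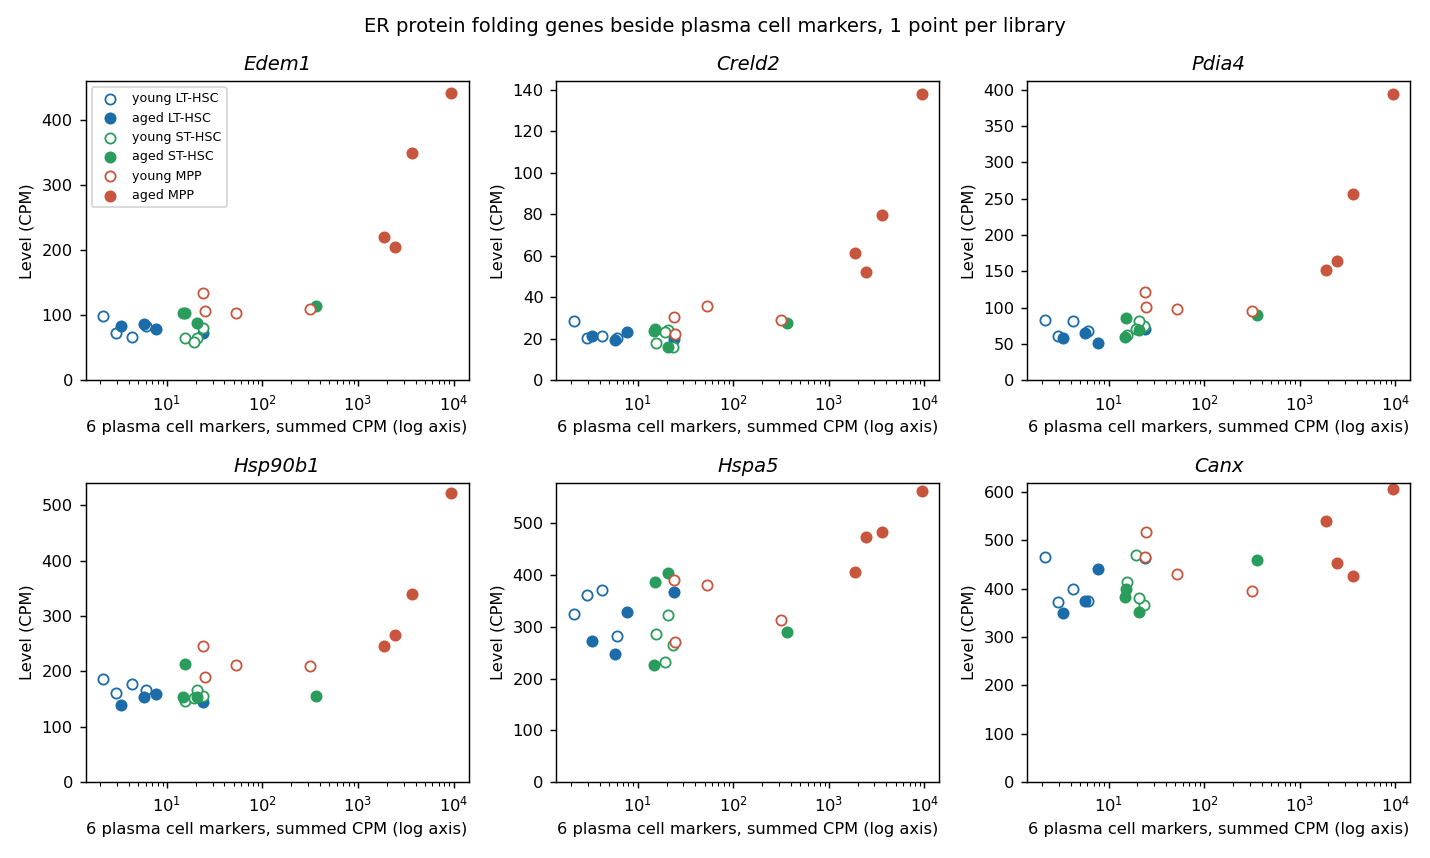
Level of 6 of the genes (CPM, vertical axis) against the summed level of 6 defining plasma cell markers (CPM, log horizontal axis), with 1 point per library, open for young and filled for aged mice. The 4 aged MPP libraries stand apart at 1884.7 to 9424.1 CPM of markers, while the other 20 libraries lie at 360.5 CPM or less. The aged MPP libraries hold the highest Edem1, Creld2 and Pdia4. The genes shown are a selection and do not stand for the whole list. Aged MPP library 2, although rich in markers, was the lowest aged MPP library for Calr (713.2 CPM), Canx (426.7) and Pdia6 (126.6).

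The age effects themselves were compared between populations with the interaction terms of the fit. For LT-HSC against MPP, 7 of the 10 genes differed, with 9.93% of all genes tested called, and all 7 effects were more negative in LT-HSC. The differences were -3.38 ± 0.37 log2 units for Sdf2l1 (edgeR adjusted p = 1.8e-06), -1.6 ± 0.33 for Creld2 (0.0025), -1.47 ± 0.31 for Pdia4 (0.0048) and -1.43 ± 0.26 for Edem1 (0.00094). Those of Pdia6 (-1.04), Hsp90b1 (-0.9) and Calr (-0.72) were smaller, with adjusted p of 0.00047, 0.015 and 0.0062. Hspa5 (-0.64), Dnajb9 (-0.42) and Canx (-0.15) did not pass. All aged MPP libraries in these differences carried plasma cell transcripts, with defining markers summing to 1884.7 CPM or more. Leaving out libraries 2 and 4 therefore does not remove these transcripts. Without aged MPP libraries 2 and 4, 6 genes were still called, with 5.71% of all genes tested called, and Hsp90b1 (-0.46, edgeR adjusted p = 0.065) was not.

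For LT-HSC against ST-HSC, 2 of the 10 age effects differed, with 4.05% of all genes tested called. Sdf2l1 fell in LT-HSC and did not pass in ST-HSC, where its estimate was positive, and the difference was -3.15 ± 0.38 log2 units (edgeR adjusted p = 1.5e-05). The difference for Calr was -0.63 ± 0.17 (adjusted p = 0.033). That of Calr was lost without any 1 of 7 libraries (aged LT-HSC 1 and 3, young LT-HSC 2 and 3, aged ST-HSC 1 and 2, young ST-HSC 4; adjusted p = 0.051 to 0.065). Without the libraries rich in granulocyte transcripts, which leaves only library 4 of aged ST-HSC, the differences were -3.08 for Sdf2l1 and -0.72 for Calr.

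For ST-HSC against MPP, edgeR called 0 of the 10 differences, with 0.465% of all genes tested called. At an unadjusted p under 0.05 there were 5, and DESeq2 called 2 (Pdia4, -1.15, and Creld2, -1.32) and limma-voom 0. The estimates were -1.31 ± 0.33 log2 units for Creld2 and -1.14 ± 0.31 for Pdia4 (edgeR adjusted p = 0.073 and 0.13). The difference called varied with single libraries: without aged MPP library 1, 3 genes were called, and without aged MPP library 3, 2 genes. The 3 comparisons of age effects share libraries and are not independent.

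In young mice the populations were compared in pairs. Compared with MPP, young ST-HSC were lower in 5 of the 10 genes, with 20.6% of all genes tested called. The log2 differences were -1.69 ± 0.25 for Sdf2l1, -0.76 ± 0.18 for Edem1, -0.75 ± 0.12 for Calr, -0.53 ± 0.13 for Pdia6 and -0.47 ± 0.16 for Hsp90b1 (edgeR adjusted p = 4e-05, 0.0054, 6.5e-05, 0.0046 and 0.043). Sdf2l1 thus stood at 9.94 to 13.2 CPM in young ST-HSC against 28.5 to 44.4 CPM in young MPP, without overlap. The Hsp90b1 call was lost without any 1 of 7 of the 8 libraries, all but young MPP library 2 (edgeR adjusted p = 0.053 to 0.12). It was also lost with limma-voom (adjusted p = 0.068) and in edgeR with no low-count filter (0.055).

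Young LT-HSC against young MPP gave 4 calls, with 37.2% of all genes tested called, close to the share of members: Calr (-0.6 ± 0.12), Sdf2l1 (-0.9 ± 0.24) and Edem1 (-0.49 ± 0.18) were lower in LT-HSC and Dnajb9 (0.59 ± 0.22) was higher. Their edgeR adjusted p-values were 0.00024, 0.0051, 0.04 and 0.031. Dnajb9 stood at 32.9, 22.1, 42.1 and 30.6 CPM in young LT-HSC and 22.2, 26.4, 20.3 and 15.8 CPM in young MPP, where the libraries overlapped. Both Edem1 and Dnajb9 were lost on leaving out single libraries: Edem1 without any of young MPP 1, 2 and 4 or young LT-HSC 2, 3 and 4 (adjusted p up to 0.14), and Dnajb9 without any of young LT-HSC 1 and 3 or young MPP 3 and 4 (up to 0.13). Edem1 was also lost with limma-voom (adjusted p = 0.078) and in edgeR with no low-count filter (0.058). Between young LT-HSC and ST-HSC, 1 of the 10 genes passed, with 12.5% of all genes tested called. This was Sdf2l1, higher in LT-HSC by 0.79 ± 0.25 on the log2 scale (16.3 to 25.9 against 9.94 to 13.2 CPM; edgeR adjusted p = 0.038). It was not called by limma-voom (adjusted p = 0.16), nor without any of young ST-HSC 1, 2 and 4 or young LT-HSC 2, 3 and 4.

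The same pairs were compared in aged mice. Compared with aged MPP, 9 of the 10 genes were lower in aged LT-HSC and 9 in aged ST-HSC, all but Dnajb9 in both cases, with 56.8% and 29.9% of all genes tested called. For LT-HSC against MPP the log2 differences ran from -0.32 ± 0.12 for Canx to -4.27 ± 0.29 for Sdf2l1, which stood 19.3-fold lower in aged LT-HSC (edgeR adjusted p = 5e-12). For ST-HSC against MPP they ran from -0.35 ± 0.12 for Canx to -1.91 ± 0.25 for Sdf2l1. Without aged MPP libraries 2 and 4, 9 genes were still called in LT-HSC against MPP, with 46.8% of all genes tested called. In ST-HSC against MPP 7 were called, with 18.2% of all genes tested called, and Hspa5 and Canx no longer passed (edgeR adjusted p = 0.16 and 0.07). The aged MPP libraries that were kept still carried plasma cell transcripts. Canx in LT-HSC against MPP was lost without aged LT-HSC library 3 or 4 or aged MPP library 4 (0.053 to 0.1). Hspa5 and Canx in ST-HSC against MPP were also lost on leaving out single libraries: Hspa5 without aged ST-HSC 3 or aged MPP 4, and Canx without aged ST-HSC 1 or 3 or aged MPP 3 or 4.

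Aged LT-HSC were lower than aged ST-HSC in 3 of the 10 genes, with 32.3% of all genes tested called, close to the share of members. Sdf2l1 stood at 3.15 to 4.15 CPM in aged LT-HSC against 14.1 to 29.6 CPM in aged ST-HSC, a log2 difference of -2.36 ± 0.28 (edgeR adjusted p = 4e-07). Calr (320.1 to 380 against 418.8 to 536.1 CPM) was lower by -0.47 ± 0.12 without overlap (adjusted p = 0.0029). Pdia6 (-0.35 ± 0.13, edgeR adjusted p = 0.041) overlapped between the groups. Its call was lost without any 1 of aged LT-HSC libraries 1 and 3 and aged ST-HSC libraries 1 and 2 (edgeR adjusted p = 0.1 to 0.14). It was also lost in edgeR with DESeq2 size factors (0.054) or only the groups compared (0.057). DESeq2 (adjusted p = 0.054) and limma-voom (0.061) did not call it either. With the libraries rich in granulocyte transcripts left out, only library 4 remained of aged ST-HSC. The log2 differences were then -2.19 for Sdf2l1, -0.51 for Calr and -0.27 for Pdia6. In young mice Sdf2l1 was higher in LT-HSC than in ST-HSC, and in aged mice it was lower. The populations of one age may come from the same mice, and comparisons within an age share groups.

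Across the 24 libraries, the members tended to rise and fall together apart from Dnajb9. The mean Pearson correlation of log2 CPM over the 36 pairs without Dnajb9 was 0.78 (0.41 to 0.96), while the 9 pairs with Dnajb9 averaged 0.03 (-0.21 to 0.17). With the group means removed, the averages were 0.45 (0.01 to 0.84) and 0.44 (0.27 to 0.63), so Dnajb9 varied with the others within groups. Some pairs of the other members hardly varied together there, such as Hspa5 and Canx (0.01). Sdf2l1 and Dnajb9 were at -0.21 over the libraries and 0.56 within groups. These are descriptions over libraries that share groups and depth. They include aged MPP, the group of highest summed level, and were not taken without it.

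The genes with the pattern most like the mean of the members, over 24 libraries, were Manf (r = 0.96), Sec61a1 (0.94), Pdia3 (0.94), Hyou1 (0.94), Derl3 (0.92) and Slc30a5 (0.92). Manf encodes a secreted factor held in the ER, Sec61a1 the channel through which proteins enter the ER, Pdia3 a disulfide isomerase that works with the lectin chaperones, Hyou1 an ER chaperone, Derl3 a factor of ER-associated degradation and Slc30a5 a zinc transporter. Over the 20 libraries without aged MPP, r was 0.9 for Manf and 0.61 for Derl3. Derl3 averaged 51 ± 32.9 CPM in aged MPP, and its group means were at most 4.25 CPM elsewhere. Sdf2l1, singled out after its values were seen, was most like Tfdp1 (0.95) and Anp32b (0.94). Tfdp1, the partner of E2F factors, stood at 135.6 ± 4.89 CPM in young and 86.4 ± 8.63 CPM in aged LT-HSC.

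Other genes of the secretory pathway were read from lists by function, and the shares called are to be read against those of all genes tested for age, 18.9% in LT-HSC, 5.79% in ST-HSC and 9.79% in MPP. Of 47 tested ER chaperones and folding enzymes besides the 10, 13 rose and 1 fell in aged MPP (29.8% called), with a median log2 difference of 0.32. Those of smallest p were the thioredoxin-like isomerases Txndc5 (2.32 ± 0.21, from 103.7 to 516.6 CPM) and Txndc11 (0.82 ± 0.13), the disulfide isomerase P4hb (0.57 ± 0.12) and Hyou1 (0.63 ± 0.14). In LT-HSC, 4 rose and 2 fell (median 0.01), a share of 12.8% that is under that of all genes: the sulfhydryl oxidase Qsox1 (0.58 ± 0.1) and Mcfd2 (0.36 ± 0.11) rose, and the peroxiredoxin Prdx4 (-0.61 ± 0.18) and P4hb (-0.4 ± 0.12) fell. In ST-HSC 1 rose, the glucosyltransferase of glycoprotein quality control Uggt1 (0.25 ± 0.07), with a median of 0.05 and 2.13% called.

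Of 31 genes of ER-associated degradation, 9 rose in aged MPP (29% called, median 0.15), with Derl3 (3.59 ± 0.37), Edem2 (0.79 ± 0.1), Sel1l (1.06 ± 0.16) and Man1a (0.44 ± 0.07) of smallest p. Edem2, a relative of Edem1, averaged 92.2 ± 3.27 CPM in young and 160 ± 28.1 CPM in aged MPP. In LT-HSC 3 rose, namely Man1a (0.52 ± 0.07), Herpud2 (0.36 ± 0.1) and Rnf139 (0.41 ± 0.13), and this 9.68% is under the share of all genes. In ST-HSC edgeR, DESeq2 and limma-voom called 0, with 2 genes at an unadjusted p under 0.05 in edgeR.

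Of 20 sensors and transcription factors of the unfolded protein response, 5 rose and 1 fell in aged MPP (30% called, median 0.39). Xbp1 rose by 1.77 ± 0.17 on the log2 scale, from 57 ± 7.37 to 194.6 ± 66.5 CPM (edgeR adjusted p = 5.9e-07). The related factor Creb3l2 rose by 1.47 ± 0.15 and the sensor Atf6 by 0.82 ± 0.13, while Nfya, a subunit of NF-Y, fell by 0.36 ± 0.07. Nfya fell in all 3 populations, by 0.47 ± 0.07 in LT-HSC and 0.25 ± 0.07 in ST-HSC. In LT-HSC, Mbtps2 (0.46 ± 0.13), which encodes a protease that releases ATF6, and Atf6 (0.42 ± 0.13) rose and Atf6b (-0.58 ± 0.16) fell, and with Nfya this made 20% called, near the share of all genes. In ST-HSC, Creb3l2 (0.82 ± 0.15) and Atf4 (0.64 ± 0.18) rose (15% called with Nfya).

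Among 34 tested targets of ATF4 and the integrated stress response, LT-HSC had 3 higher and 8 lower genes (32.4% called, median -0.09). Phgdh of serine synthesis (-0.64 ± 0.1) and Mthfd2 (-2.87 ± 0.45) and Shmt2 (-0.76 ± 0.13) of mitochondrial one-carbon metabolism fell, and Vldlr, a lipoprotein receptor, rose from 20.5 ± 6.86 to 117.9 ± 26.5 CPM. In aged MPP 6 rose and none fell (17.6% called, median 0.21), among them Slc3a2 (1.46 ± 0.23), the heavy chain of amino acid transporters, Pycr1 of proline synthesis (2.07 ± 0.5) and Ppp1r15a (0.9 ± 0.21), which reverses the translational block. Chac1 was also called there, with 2 counts over the young and 304 over the aged MPP libraries. In ST-HSC, 2 rose and 1 fell (8.82% called, median 0): Ppp1r15a (0.85 ± 0.21) and Vldlr (0.88 ± 0.22) were higher and Trib3 (-0.87 ± 0.22) lower.

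The machinery that moves proteins into and out of the ER was read from 3 further lists. Of 25 tested translocon and signal peptide genes, 14 rose in aged MPP (56% called, median 0.41), including Sec61a1 (0.59 ± 0.07, from 204.8 ± 12.3 to 308.2 ± 19.7 CPM), Ssr4 (0.8 ± 0.12), Sec11c (0.93 ± 0.15) and Tram2 (0.81 ± 0.14). In LT-HSC, 1 rose (Srpr, 0.36 ± 0.09) and 4 fell, among them Sec61b (-0.63 ± 0.18), Spcs3 (-0.34 ± 0.1) and Tram2 (-0.46 ± 0.14), or 20% called, near the share of all genes. In ST-HSC 2 rose, Ssr1 (0.28 ± 0.07) and Sec11c (0.52 ± 0.15), or 8%.

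Of 32 genes of N-glycan addition, 7 rose in aged MPP (21.9% called), 2 in ST-HSC (6.25%, near the share of all genes) and 2 in LT-HSC, where 3 fell (15.6%, under that share). Rpn1 (0.5 ± 0.11) and Ddost (0.38 ± 0.09), subunits of the oligosaccharyltransferase, were among those in MPP, and the catalytic subunit Stt3b rose in all 3 populations (0.3 ± 0.07 in LT-HSC, 0.33 ± 0.07 in ST-HSC and 0.3 ± 0.07 in MPP). Of 31 genes of ER to Golgi transport, 10 rose in aged MPP (32.3% called), with Surf4 (0.56 ± 0.07) and Sec24d (1.21 ± 0.17) of smallest p. In ST-HSC 3 rose, Preb (0.41 ± 0.09), Tmed3 (0.58 ± 0.16) and Sec24d (0.57 ± 0.17), or 9.68%. In LT-HSC edgeR, DESeq2 and limma-voom called 0 of them, with 6 at an unadjusted p under 0.05 in edgeR.

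Of 27 tested cytosolic chaperones, which serve proteins outside the ER, 1 rose and 2 fell in aged MPP (median 0.04), 2 rose and 1 fell in ST-HSC (median 0), and 1 rose and 3 fell in LT-HSC (median -0.16). The shares called were 11.1%, 11.1% and 14.8%, near the share of all genes in MPP, above it in ST-HSC and under it in LT-HSC. Hsph1, an Hsp110 chaperone, fell in all 3 populations, by 1.13 ± 0.2 on the log2 scale in LT-HSC, 1.34 ± 0.2 in ST-HSC and 0.67 ± 0.19 in MPP. Hsp90ab1 rose by 0.22 ± 0.06 in MPP and 0.19 ± 0.06 in ST-HSC. Hspa1b fell in MPP (-3.34 ± 0.96), where its libraries overlapped between the ages.

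The secretory pathway counts in MPP, like those of the 10 genes, come from aged libraries that carried the plasma cell transcripts given above. The part of these transcripts in the counts was not tested. Without aged MPP libraries 2 and 4, 3.53% of all genes tested were called, against 9.79% with them. Called higher were then 3 of the 47 other chaperones, 5 of the 31 degradation genes, 7 of the 25 translocon genes and 4 of the 31 transport genes. The integrated stress response list then had 2, the glycan list 1 and the sensor list 3 higher and 1 lower. The shares called were thus 6.38% for the other chaperones, 16.1% for degradation, 28% for the translocon, 12.9% for transport, 5.88% for the integrated stress response, 3.12% for glycans and 20% for the sensors. The aged MPP libraries that were kept also carried plasma cell transcripts.

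**Figure D4:**
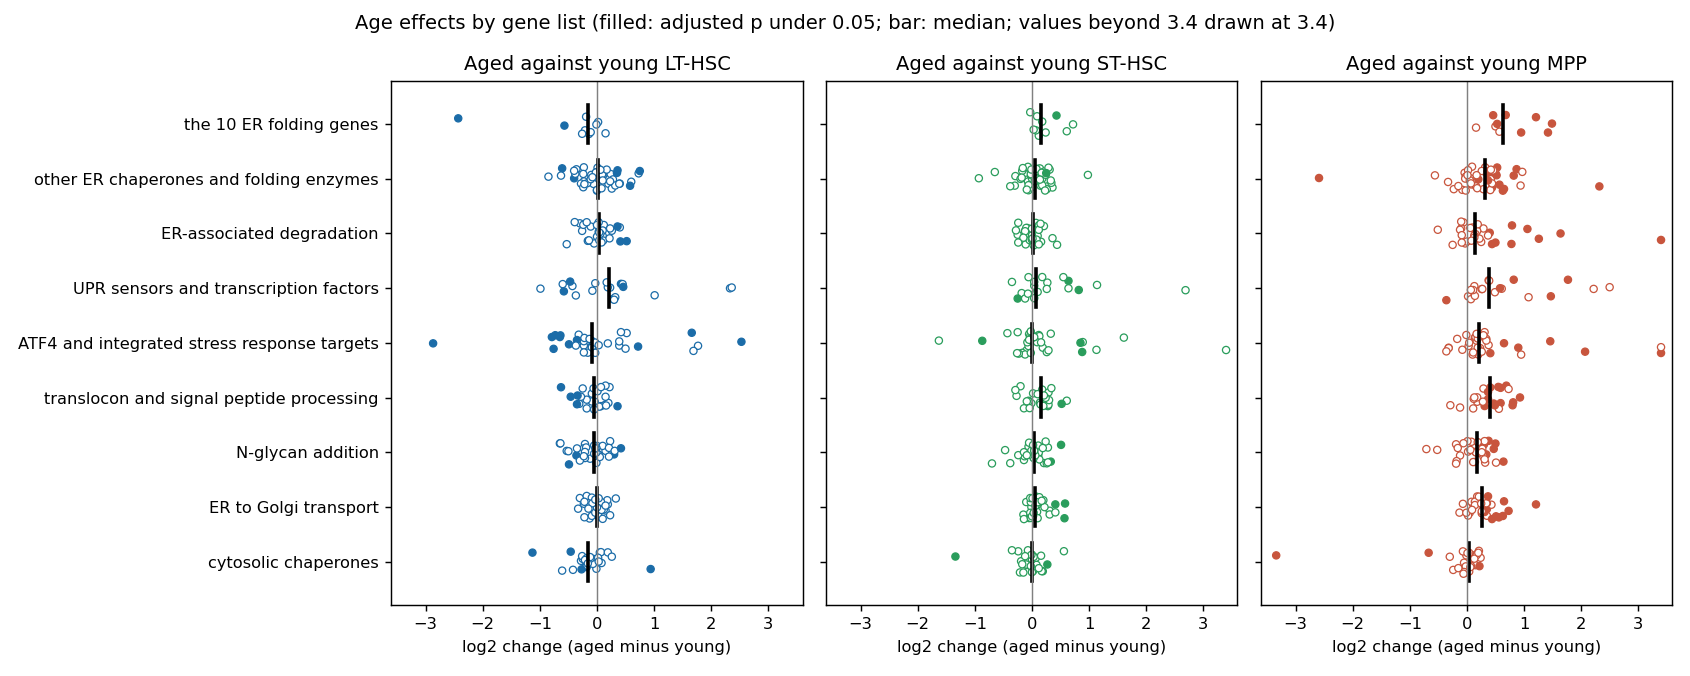
Differences between aged and young libraries (log2, horizontal axis) for every tested gene of the 10 ER folding genes and 8 other lists, in LT-HSC, ST-HSC and MPP, with filled circles for adjusted p under 0.05 and a bar for the median of each list. In MPP the median of the 10 genes (0.63) and those of the translocon (0.41) and the other ER chaperones (0.32) lie to the right of 0 and that of the cytosolic chaperones (0.04) near it.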

How the data were processed

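Bulk RNA-seq was made from 24 libraries in 6 groups of 4, named by age and sorted population per the labels. Per the labels' protocols, first-strand cDNA used not-so-random primers and libraries a Nextera XT kit, which keeps no record of the strand or of single molecules. The tools were HISAT2, featureCounts and Trim Galore, with build mm10, per the submitters' processing notes. Their versions, the annotation and any strand option were not given in the sources used here. As 1 table, the authors deposited raw counts per gene symbol, not normalized, judged from the values. In it 27 symbols had become dates, at most 0.192% of a library's counts. Reads of genes that overlap cannot be told apart: Hsp90b1 shares 415 exon bases with 1810014B01Rik and Pdia6 50 with Atp6v1c2, both on the opposite strand (GENCODE M21).

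Tests on the counts used R 4.3.3 and edgeR 4.0.16: filterByExpr, TMM factors, robust quasi-likelihood fit to all 24 libraries with 1 mean per group (18 residual degrees of freedom), 12 two-sided contrasts, and Benjamini-Hochberg adjustment over 14205 genes with a threshold of 0.05. SEs are those implied by the F test. The fit was tested on simulated data. Alternatives were DESeq2 size factors, no low-count filter, DESeq2 1.42.0, limma-voom (limma 3.58.1), prior counts of 0.5 and 5 for log2 CPM, only the groups compared, the replicate number as a block, each library left out, and 2 sets of libraries left out that were chosen after the data were seen. Correlations used log2 CPM with a prior count of 2. The members and lists were chosen with earlier results of these data known. All 10 members are named. Other list genes are named by up to 4 of smallest p among those called, and the 6 genes of likest pattern by correlation with the members' standardized mean at 10 CPM or more. Library totals of 7307151 to 12946550 counts set the precision, and the lowest member count of any library was 30.

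Whether libraries of equal number are pairs was not settled by the labels or the values. Of 24 pairs of equal number, 11 deviated together with a correlation over 0.1 (range -0.18 to 0.37). The main fit used no pairing.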

Additional observations from a re-analysis of the deposited data

Results flagged for a closer look

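In 4 of 60 groups of 4 libraries, 1 library stood far from the other 3 by Dixon's criterion, which chance meets in about 1 in 20 groups. Hsp90b1 stood at 212.4 CPM in aged ST-HSC library 2, against a mean of 154.4 in the other 3. Creld2 stood at 28.6 CPM in young LT-HSC library 1, against 20.7. Sdf2l1 stood at 29.6 CPM in aged ST-HSC library 2, against 15.5, and at 121.2 CPM in aged MPP library 4, against 54.8. Aged ST-HSC library 2 and young LT-HSC library 1 also had high summed granulocyte markers (2693.5 and 931.3 CPM). Aged ST-HSC libraries 1 and 3 were rich in granulocyte transcripts too, without standing apart. They were at 153.5 and 153.8 CPM for Hsp90b1 and at 15.7 and 14.1 CPM for Sdf2l1. Aged MPP library 4 had the highest summed plasma cell markers (9424.1 CPM for the defining 6). The part of these transcripts was not tested.

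Of 30 tests of a difference between the age effects of populations, 9 passed in edgeR. In LT-HSC minus ST-HSC these were Sdf2l1 (-3.15 log2 units) and Calr (-0.63). In LT-HSC minus MPP they were Sdf2l1 (-3.38), Creld2 (-1.6), Pdia4 (-1.47), Edem1 (-1.43), Pdia6 (-1.04), Hsp90b1 (-0.9) and Calr (-0.72).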

How the results depend on the processing

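Each count below is the number of the 10 genes called, beside the main count. For age in ST-HSC (main 1), DESeq2 and a fit to only the groups compared gave 2, and leaving out young LT-HSC library 1 with aged ST-HSC libraries 1, 2 and 3 gave 0. For age in MPP (main 7), only the groups compared gave 4, and leaving out aged MPP libraries 2 and 4 gave 4. For LT-HSC minus ST-HSC (main 2), only the groups compared gave 4 and leaving out the 4 libraries 1. For ST-HSC minus MPP (main 0), DESeq2 gave 2 and the replicate block 1 (Pdia4, -1.07). The block kept every call and added 5 in all. For young LT-HSC against ST-HSC (main 1), limma-voom gave 0, and for aged LT-HSC against ST-HSC (main 3), leaving out the 4 libraries gave 1. Leaving out the 4 libraries kept only library 4 of aged ST-HSC, so those counts involve a group without replicates. The cause of the changes was not tested. The alternatives not named gave counts within 1.5 times the main one.

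Leaving out 1 library at a time gave 2 to 2 genes for age in LT-HSC, 0 to 1 in ST-HSC and 5 to 8 in MPP. It gave 1 to 3 for LT-HSC minus ST-HSC, 7 to 7 for LT-HSC minus MPP and 0 to 3 for ST-HSC minus MPP. In young mice it gave 0 to 1 for LT-HSC against ST-HSC, 4 to 5 for ST-HSC against MPP and 2 to 4 for LT-HSC against MPP, and in aged mice 2 to 3, 7 to 9 and 8 to 9.

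Of 120 log2 differences, 19 changed sign under some alternative, and none of these was called as reported. Edem1 for age in LT-HSC (-0.01) became 0 with DESeq2 size factors, DESeq2, limma-voom and the replicate block, and 0.08 without the 4 libraries. Canx for age in LT-HSC became -0.01 with no filter, and Hspa5 in young LT-HSC against MPP 0 with only the groups compared. Without aged MPP libraries 2 and 4, Sdf2l1 in ST-HSC minus MPP became 0.16 and Dnajb9 in aged ST-HSC against MPP 0.14. Without the 4 libraries, age in ST-HSC became 0.18 for Canx, -0.07 for Pdia6 and -0.1 for Dnajb9. Canx became -0.11 in LT-HSC minus ST-HSC, 0.01 in ST-HSC minus MPP and -0.19 in aged LT-HSC against ST-HSC. Pdia4 became -0.04 in young LT-HSC against ST-HSC, Hspa5 0 in young LT-HSC against MPP and 0.05 in aged LT-HSC against ST-HSC.

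With single libraries left out, these ranges crossed 0: Canx -0.07 to 0.09, Edem1 -0.1 to 0.11, Creld2 -0.17 to 0.02 and Dnajb9 -0.01 to 0.3 for age in LT-HSC. For age in ST-HSC they were Canx -0.1 to 0.04, Pdia6 -0.03 to 0.14, Dnajb9 -0.11 to 0.19 and Pdia4 -0.01 to 0.18. For the differences of age effects they were Canx -0.05 to 0.13 and Dnajb9 -0.1 to 0.24 (LT-HSC minus ST-HSC), and Calr -0.25 to 0 and Sdf2l1 -0.51 to 0.15 (ST-HSC minus MPP). Between populations they were Canx -0.05 to 0.1 and Hspa5 -0.25 to 0.02 (aged LT-HSC against ST-HSC), Dnajb9 -0.31 to 0.14 (aged ST-HSC against MPP), Pdia4 -0.05 to 0.11 and Canx -0.1 to 0.05 (young LT-HSC against ST-HSC), and Hspa5 -0.11 to 0.07 (young LT-HSC against MPP).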
